A study of Mus musculus with 9 samples.

Results

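Irx3, Irx5, Tbx1, Tbx15, Dach1, Six4, Eya1 and Lbx1 encode transcription factors and 1 transcriptional coactivator, most of them known from limb or muscle patterning. These 8 genes, out of 55335 in the count table, were chosen by symbol, and the choice was made with their group differences in these same libraries already known. Their differences between groups are therefore given as a description, and nothing is supported with them. The fits were made over all genes, and their calls are printed as the background against which the 8 are described. All 8 passed the filter on low counts, as did 18259 genes in all.

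RNA was sequenced from leg muscles of 9 WT mice (c57b6l in the labels' spelling), with 1 library per mouse. Every animal, controls included, had gone through a hindlimb model that the labels call suspension ischemia. Afterwards 3 mice stayed untreated (Control), 3 were given aspirin, an inhibitor of the cyclooxygenases (Aspirin), and 3 were given aspirin combined with a peptide hydrogel (Hydrogel). Dose, route, time after injury, sex, age and batch are not in the labels, and neither uninjured muscle nor hydrogel without aspirin was analysed here, so the part of the hydrogel itself cannot be told apart from that of the combination.

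Iroquois genes such as Irx3 and Irx5 encode homeodomain factors that act together in early limb bud patterning, and both are also known from the control of adipocyte precursors. Tbx1 and Tbx15 are T-box factors, the first best known from pharyngeal and head muscle and the second from limb mesenchyme, fast glycolytic fibres and adipose tissue. Six4, Eya1 and Dach1 belong to 1 network, in which homeoproteins of the Six4 kind bind DNA at MEF3 sites, Eya proteins are their coactivators, and Dach proteins act mostly as corepressors. Lbx1 is a homeobox factor of the muscle precursors that migrate into the limb.

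On the mm10 assembly, with GENCODE vM21 models, all 8 are protein-coding genes. The Iroquois pair lies on 1 chromosome, Irx3 (ENSMUSG00000031734) at chr8:91798525-91802067 on the minus strand and Irx5 (ENSMUSG00000031737) at chr8:92357625-92376286 on the plus strand, 555557 bases apart. Tbx1 (ENSMUSG00000009097) is at chr16:18580979-18590671 on the minus strand, and Tbx15 (ENSMUSG00000027868) is at chr3:99240381-99354259 on the plus strand. Dach1 (ENSMUSG00000055639) spans chr14:97786853-98169765, Six4 (ENSMUSG00000034460) chr12:73099609-73113456, Eya1 (ENSMUSG00000025932) chr1:14168954-14310235 and Lbx1 (ENSMUSG00000025216) chr19:45232684-45235812, each on the minus strand. Irx3 shares 124 exonic bases with the antisense gene Irx3os, and whether counting used strand is not given in the sources used here, so reads there cannot be assigned with certainty.

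RefSeq promoter windows on GRCm38.p6 were matched for 4 of the 8 genes: Dach1, Irx3, Six4 and Tbx1. The 250 bases before 1 start of Tbx1 (chr16:18590672-18590921) and before the start of Dach1 (chr14:98169766-98170015) are shown because both genes were lowest in Aspirin, and both windows hold 0 annotated exonic bases. They are written 5′ to 3′ along the gene, which is on the minus strand in both cases, and capitals mark a match to the T-box motif AGGTGTNA, 76 bases before the Tbx1 start.
Tbx1: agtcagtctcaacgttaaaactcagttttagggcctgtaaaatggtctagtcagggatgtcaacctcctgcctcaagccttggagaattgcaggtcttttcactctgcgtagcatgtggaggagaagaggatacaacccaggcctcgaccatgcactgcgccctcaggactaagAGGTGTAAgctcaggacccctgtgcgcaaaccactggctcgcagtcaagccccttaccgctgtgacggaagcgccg
Dach1: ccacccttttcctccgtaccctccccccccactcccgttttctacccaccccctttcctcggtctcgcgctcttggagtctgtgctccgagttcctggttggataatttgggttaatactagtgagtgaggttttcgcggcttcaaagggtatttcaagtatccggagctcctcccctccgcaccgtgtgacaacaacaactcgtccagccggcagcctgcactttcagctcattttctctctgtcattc
The Dach1 window held none of the 3 motifs searched on both strands, which were AGGTGTNA, the MEF3 site TCAGGTT and the Iroquois site ACANNTGT. The window before the other Tbx1 start (chr16:18588900-18589149) held none of them either. Among the 6 windows of the 4 genes, 1 held the T-box letters. Of 32851 windows of the same length in the table, 2.68% held the T-box letters, 3.49% the MEF3 letters and 6.31% the Iroquois letters. A MEF3 match also occurred in 1 window of Six4, on the opposite strand 97 bases before the start. A match is a run of letters and not a measured binding site.

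The leg muscle label was checked against marker genes. All 16 fast-fibre genes of the marker list, among them Myh4 and Ckm, passed the filter, and their summed level was between 27921 CPM (counts relative to the TMM-scaled library size) in Aspirin replicate 1 and 366756 CPM in Hydrogel replicate 3. Tbx4, the T-box factor of the hindlimb, lay between 1.45 and 8.35 CPM, against 0 to 0.407 CPM for its forelimb counterpart Tbx5. Hoxc10, a Hox gene of the hindlimb level, lay between 12.1 and 107.6 CPM, while Pitx1, a hindlimb selector of the embryo, lay between 0 and 0.984 CPM. Total counts per library ran from 32197791 to 48170537. Aspirin replicate 1 and Hydrogel replicate 3 stood apart from the rest at -155 and 101 on the first principal component (50.8% of the variance over 14626 genes), with the other 7 libraries between -52.1 and 40.1, and values without them are given beside results that they decide.

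Measured per length, as the fragments per kilobase scaled by library size (FPKM) that the authors deposited, the 8 genes spanned a wide range of levels. Tbx15 had the highest mean over the 9 libraries at 57.1 FPKM, rank 579 of 18259 genes, and exceeded Lbx1, at 9.24 FPKM, in 9 of 9 libraries. Tbx1 followed at a mean of 3.02 FPKM, below Lbx1 in 8 of 9 libraries. Eya1 at 1.86, Irx3 at 1.68 and Six4 at 1.46 FPKM had overlapping ranges, and neighbours among them kept their order in 5 to 6 of 9 libraries. Irx5, at 0.904 FPKM, and Dach1, at 0.475 FPKM and rank 14137, were lowest, and Irx5 was above Dach1 in 7 of 9 libraries. Their order depended on the group: Tbx1 was above Eya1 in 3 of 3 Control libraries and in 1 of 3 libraries of each treated group.

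**Figure D1:**
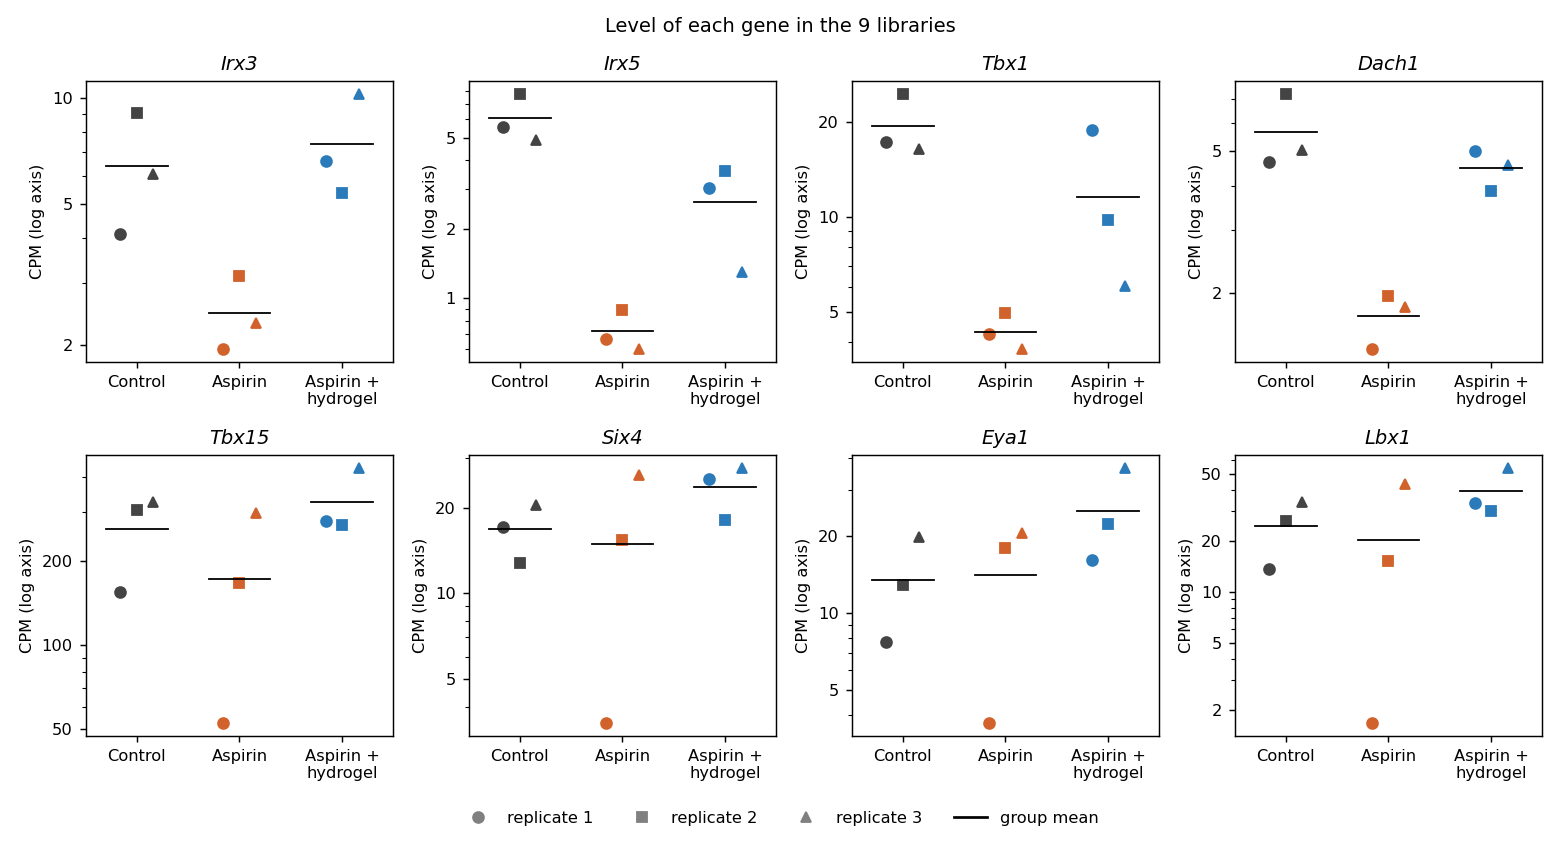
Level of each of the 8 genes in every library, in CPM on log axes; each point is 1 mouse, the point shapes mark the replicate number and the line is the group mean of 3 libraries. Irx3, Irx5, Tbx1 and Dach1 were lower in every Aspirin library than in any Control library, whereas Tbx15, Six4, Eya1 and Lbx1 were lowest in Aspirin replicate 1 and overlapped between all groups.

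Irx5 had the widest separation between Aspirin and Control. It read 5.58, 7.75 and 4.86 CPM in Control, from 302, 347 and 167 counts. Aspirin libraries read 0.668, 0.890 and 0.600 CPM, from 35, 38 and 21 counts, and Hydrogel libraries 3.02, 3.57 and 1.30 CPM, from 125, 118 and 39 counts. The 3 groups did not overlap on this scale, with Hydrogel between the other groups and its replicate 3 nearest to Aspirin. The fitted log2 difference was -3.07 ± 0.46 (SE, n = 3 per group) in Aspirin against Control, an 8.39-fold lower level. It was -1.20 ± 0.42 in Hydrogel against Control and 1.87 ± 0.44 in Hydrogel against Aspirin. On the FPKM scale Hydrogel replicate 3, at 0.257, lay within the Aspirin range of 0.153 to 0.301, so the separation of those groups depended on the scaling, and the difference there was 1.08 on the log2(FPKM + 0.1) scale. In RNA from whole muscle, fewer cells that express a gene and less of its RNA per cell cannot be told apart.

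Irx3, the linked Iroquois gene, differed less and in a different order. Its Control libraries read 4.12, 9.07 and 6.08 CPM, its Aspirin libraries 1.95, 3.14 and 2.31 CPM and its Hydrogel libraries 6.60, 5.38 and 10.2 CPM. All Aspirin libraries were below all others, and Control overlapped with Hydrogel. The log2 differences were -1.38 ± 0.39 in Aspirin against Control, 0.21 ± 0.38 in Hydrogel against Control and 1.59 ± 0.39 in Hydrogel against Aspirin, and the second of these turned to -0.11 without Hydrogel replicate 3 and to -0.03 with scaling by library size alone.

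The ratio of Irx5 to Irx3 within a library does not depend on scaling between libraries. In FPKM it was 1.20, 0.755 and 0.706 in Control, 0.300, 0.253 and 0.231 in Aspirin, and 0.401, 0.579 and 0.111 in Hydrogel. Each treated library had a lower ratio than any Control library, and the treated groups overlapped. The mean ratio was 0.887 ± 0.272 (SD, n = 3) in Control, 0.261 ± 0.0355 in Aspirin and 0.364 ± 0.237 in Hydrogel. A ratio of this kind shows unequal change of the pair and does not say which of them changed. Since Irx5 was chosen with its lower level known, the ratio was not tested.

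The ratio of Dach1 to Irx3 differed less. It was 0.430, 0.301 and 0.314 in Control, 0.272, 0.238 and 0.298 in Aspirin, and 0.286, 0.269 and 0.168 in Hydrogel. Each treated library was again below each Control library, but the gap between Control and Aspirin, 0.301 against 0.298, was smaller than the SD of either group, which was 0.0709 in Control and 0.0300 in Aspirin.

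**Figure D2:**
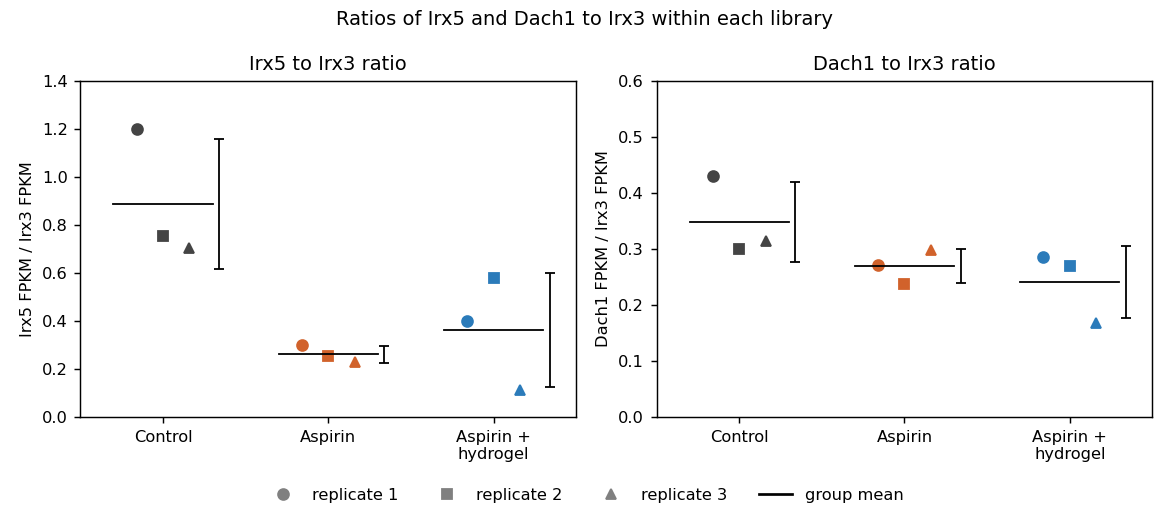
Irx5 over Irx3 (left) and Dach1 over Irx3 (right) in FPKM per library, on linear axes from 0; points are mice, lines the group mean and bars the SD, n = 3 libraries per group. All 6 treated libraries lie below the lowest Control ratio, which is 0.706 on the left and 0.301 on the right.

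The genes beside the Iroquois pair were measured at low levels. Crnde, a non-coding gene 1504 bases from Irx5 on the opposite strand, read 2.42, 2.01 and 2.30 CPM in Control, 1.05, 1.43 and 1.37 CPM in Aspirin and 1.60, 1.84 and 0.834 CPM in Hydrogel. Every Aspirin and every Hydrogel library was below every Control library, and its log2 difference in Aspirin against Control was -0.81 ± 0.39, smaller than that of Irx5. Gm45336, a lincRNA 89480 bases from Irx5 on the other side, read 0.314, 0.290 and 0.262 CPM in Control, 0.0763, 0 and 0 CPM in Aspirin and 0.290, 0.0604 and 0 CPM in Hydrogel. Its fitted log2 difference in Aspirin against Control was -3.22 ± 1.38, but 2 of the 3 Aspirin libraries had 0 counts. Gm45336 passed the filter on low counts through Control and Hydrogel libraries, so its low Aspirin level is not set beside that of Irx5. Irx3os was at 0 counts in Aspirin replicate 1 and highest in Hydrogel replicate 3, and its groups overlapped.

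Tbx1 was the T-box gene with separated groups. Control libraries read 17.2, 24.5 and 16.4 CPM, Aspirin libraries 4.24, 4.94 and 3.80 CPM, and Hydrogel libraries 18.9, 9.73 and 6.04 CPM. The Hydrogel libraries were spread from the Control range almost to the Aspirin range, and Aspirin lay below all others. The log2 difference was -2.16 ± 0.41 in Aspirin against Control, a 4.47-fold lower level, and 1.42 ± 0.40 in Hydrogel against Aspirin. The latter was 0.87 without Hydrogel replicate 1 and 0.82 on the log2(FPKM + 0.1) scale, on which Hydrogel replicate 3, at 1.08 FPKM, lay within the Aspirin range of 0.847 to 1.74 FPKM. In Hydrogel against Control the difference was -0.74 ± 0.39, reaching -1.29 without Hydrogel replicate 1 and -0.45 without Hydrogel replicate 3.

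Tbx15, the most abundant of the 8 genes, read 155, 304 and 326 CPM in Control, 52.3, 167 and 298 CPM in Aspirin, and 279, 270 and 432 CPM in Hydrogel. The groups overlapped, Aspirin replicate 1 was lowest and Hydrogel replicate 3 highest. Its log2 difference in Aspirin against Control was -0.60 ± 0.58, and leaving out 1 Aspirin library moved it from -0.18 (without replicate 1) to -1.26 (without replicate 3). In Hydrogel against Aspirin it was 0.92 ± 0.58, and 0.50 and 1.58 without the same libraries and 0.66 without Hydrogel replicate 3. Wars2, which ends 1194 bases from Tbx15, read 5.65 to 9.75 CPM in all libraries, with a log2 difference of 0.32 ± 0.24 in Aspirin against Control. Gnb1l beside Tbx1 and Mnat1 beside Six4 had log2 differences of 0.37 ± 0.36 and -0.25 ± 0.22 in that comparison.

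Dach1, the corepressor of the network around Six4 and Eya1, read 4.68, 7.24 and 5.03 CPM in Control, 1.39, 1.97 and 1.83 CPM in Aspirin, and 5.01, 3.87 and 4.57 CPM in Hydrogel. Aspirin lay below both other groups, which overlapped. Its replicates were close together in the treated groups, with an SD of 0.30 CPM in Aspirin and 0.574 CPM in Hydrogel, against 1.39 CPM in Control. The log2 differences were -1.71 ± 0.31 in Aspirin against Control, 1.37 ± 0.31 in Hydrogel against Aspirin and -0.33 ± 0.30 in Hydrogel against Control, and the second was 0.75 on the log2(FPKM + 0.1) scale, with the Aspirin and Hydrogel groups still apart at 0.197 to 0.273 and 0.391 to 0.591 FPKM.

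The DNA-binding member of that network, Six4, and the coactivator Eya1 did not follow Dach1. Six4 read 17.1, 12.8 and 20.5 CPM in Control, 3.49, 15.4 and 26.0 CPM in Aspirin, and 25.3, 18.1 and 27.6 CPM in Hydrogel. Eya1 read 7.74, 12.8 and 19.7 CPM in Control, 3.72, 17.9 and 20.5 CPM in Aspirin, and 16.1, 22.1 and 36.7 CPM in Hydrogel. Both were lowest in Aspirin replicate 1 and, in CPM, highest in Hydrogel replicate 3, and their groups overlapped throughout. In FPKM, Six4 was highest in Hydrogel replicate 1, at 2.01 against 1.60 in Hydrogel replicate 3. In Aspirin against Control the log2 difference of Six4 was -0.17 ± 0.57 and became 0.29 without Aspirin replicate 1. That of Eya1 was 0.06 ± 0.60, and it lay from -0.32 without Aspirin replicate 3 to 0.51 without Aspirin replicate 1.

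Lbx1, the muscle precursor factor, varied most between libraries, with a 32.6-fold range of CPM. It read 13.7, 26.3 and 33.9 CPM in Control, 1.66, 15.2 and 43.6 CPM in Aspirin and 33.6, 30.0 and 54.1 CPM in Hydrogel. Aspirin held both the lowest library and the second highest one, so the group mean of 20.2 ± 21.4 CPM (SD, n = 3) describes none of its libraries. The log2 difference in Aspirin against Control was -0.29 ± 0.86, or 0.25 without Aspirin replicate 1 and -1.55 without Aspirin replicate 3.

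**Figure D3:**
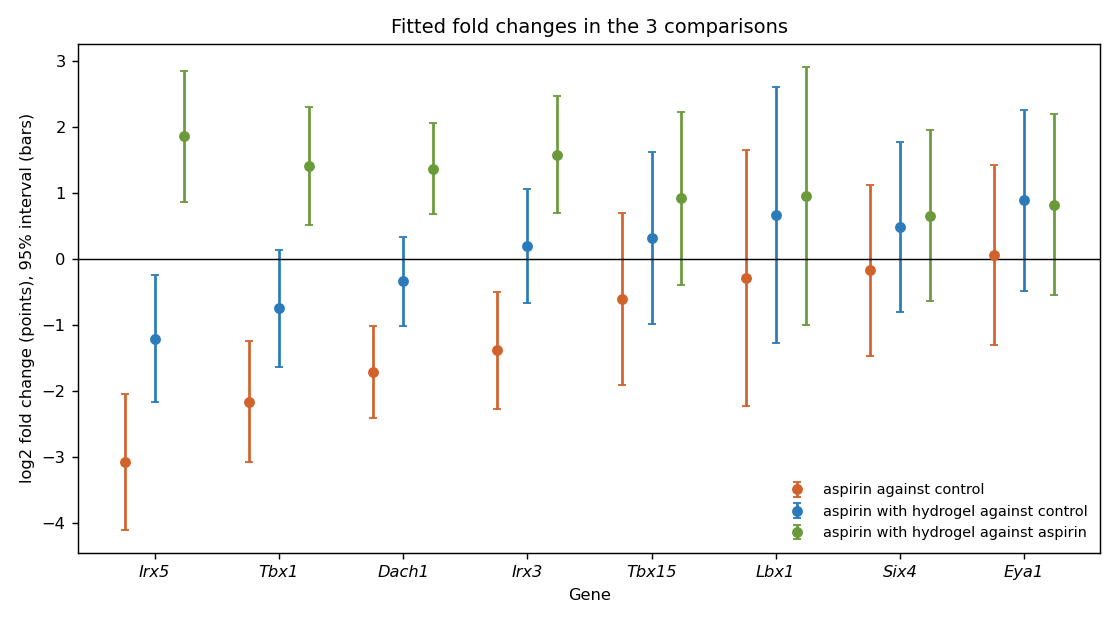
Fitted log2 fold changes of the 8 genes in the 3 comparisons (points) with 95% intervals from edgeR's quasi-likelihood fit (bars), n = 3 libraries per group. In Aspirin against Control the points of Irx5, Tbx1, Dach1 and Irx3 lie between -3.07 and -1.38 and those of the other 4 genes between -0.60 and 0.06; the genes were chosen with these differences known, so the intervals show precision and are no test.

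Read against all genes, edgeR's quasi-likelihood test with Benjamini-Hochberg adjustment called 0 of 18259 genes (0%) at an adjusted p under 0.05 in each of the 3 comparisons, members included. At an unadjusted p under 0.05 the test listed 1183, 716 and 1996 genes in that order. DESeq2, run as an alternative, called 0.553%, 0.0986% and 0.86% of genes, among them 3 of the 8 (Irx5, Tbx1, Dach1), 0 of the 8, and 3 of the 8 (Irx3, Irx5, Dach1), and nothing is read from these member counts. The comparisons share libraries, the first and last those of Aspirin and the first and second those of Control, so they are not independent of each other.

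Irx3, Irx5, Tbx1 and Dach1 were lower in all Aspirin libraries than in all Control libraries, a pattern that 5.44% of all genes showed. The same 4 genes were higher in all Hydrogel than in all Aspirin libraries on the CPM scale, as were 7.46% of genes. In FPKM, Hydrogel replicate 3 lay within the Aspirin range for Irx5 and Tbx1. Irx5 was lower in all Hydrogel than in all Control libraries, as were 6.3% of genes. These counts were unchanged without Aspirin replicate 1, without Hydrogel replicate 3 and without both, but leaving out libraries cannot lower them. The share of all genes lower in Aspirin than in Control rose to 9.56% without Aspirin replicate 1. The share higher in Hydrogel than in Aspirin rose to 18.5% without both. The rule used these contrasts, so nothing is read from the counts. Over the 8 genes the median log2 difference was -0.99, 0.26 and 1.17 in the 3 comparisons, against 0.05, -0.03 and -0.05 over all genes tested, and scaling by library size alone shifted the last 3 values by 0.23, -0.23 and -0.46.

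Across the 9 libraries the genes fell into 2 sets, a split made after their values were seen. Of 28 pairs, 11 had a Pearson correlation of log2 CPM past an adjusted p of 0.05 (exact two-sided permutation test over all orders of the libraries, Benjamini-Hochberg over the pairs). These were 4 pairs among Irx5, Tbx1, Dach1 and Irx3, all 6 pairs among Tbx15, Lbx1, Six4 and Eya1, and the pair of Irx3 and Tbx15. The first 4 pairs restate the choice of genes, since the Aspirin group was low in each of them and the orders were drawn over all groups. With each group centred on its own mean, 0 of the 28 pairs passed an exact permutation test within groups. A single pair could not pass it, since its smallest p over 216 orders is 0.00463, or 0.130 over 28 pairs. In that test 4 pairs had an unadjusted p under 0.05. The share of all gene pairs past the threshold was not measured, so the count of 11 is not read as particular to these genes. Over 14626 genes the first principal component held 50.8% of the variance, with Aspirin replicate 1 and Hydrogel replicate 3 at its ends.

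In the first set the Aspirin libraries formed a cluster of their own, so the correlation was read with groups centred. It was then 0.766 for Irx5 with Tbx1 and 0.791 for Irx3 with Dach1. It was 0.441 for Tbx1 with Dach1, 0.221 for Irx5 with Dach1, -0.0542 for Irx3 with Tbx1 and -0.200 for Irx3 with Irx5. Neither of the last pairs had passed over all 9 libraries, with r = 0.656 and 0.662 (exact permutation test, adjusted p = 0.117 for each). The exact permutation p within groups was between 0.0556 and 0.926 for all of these pairs, so shared variation between replicates of a group was not shown for them at n = 9 libraries.

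For the second set the groups overlapped, and Aspirin replicate 1 was the lowest library of each gene. Tbx15 with Lbx1 had r = 0.984 and rho = 0.867 (n = 9 libraries, exact permutation p = 0.000254, adjusted p = 0.00409; for rho, exact p = 0.00451, adjusted p = 0.0252). Leaving out the 2 libraries farthest from the median of Tbx15, Aspirin replicate 1 and Control replicate 1, left r = 0.913, and with each group centred r was 0.982. Six4 with Lbx1 had r = 0.954 and rho = 0.917 (n = 9 libraries, exact permutation p = 0.00229, adjusted p = 0.00801; for rho, exact p = 0.00131, adjusted p = 0.0184). Without its 2 farthest libraries its r was 0.637. Six4 with Eya1, r = 0.859 over 9 libraries, dropped to 0.391 in the same way, and Tbx15 with Eya1 from 0.904 to 0.507. Tbx15 with Six4 went from 0.896 to 0.528, and Eya1 with Lbx1 from 0.913 to 0.609. The libraries left out differed between pairs. Leaving out the farthest libraries narrows the range, which can itself lower r, so the falls do not show what these relations rest on. Without Aspirin replicate 1 alone, 5 of the 28 pairs passed.

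**Figure D4:**
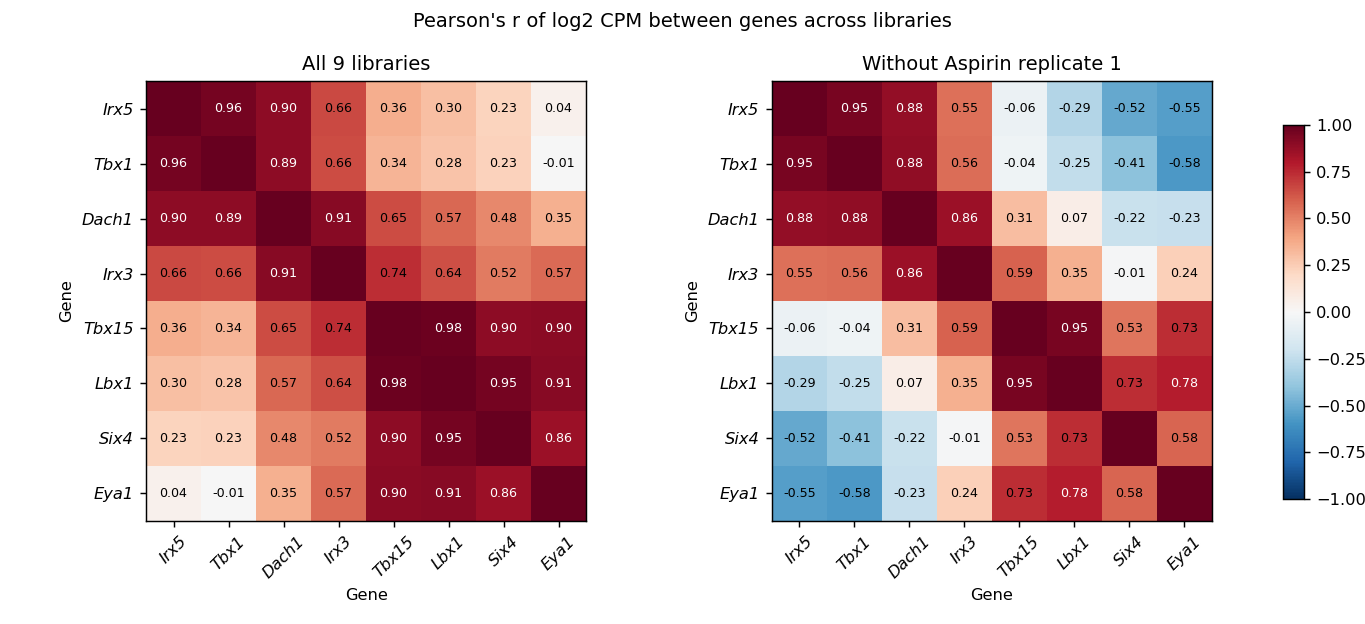
Pearson's r of log2 CPM between each pair of the 8 genes, over all 9 libraries (left) and without Aspirin replicate 1 (right), on a colour scale from -1 to 1. Tbx15 with Lbx1 stays at 0.95 and Irx5 with Tbx1 at 0.95 on the right, while r between the sets, such as Irx5 with Eya1, moves from 0.04 to -0.55.

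Summed adipocyte, endothelial and smooth muscle markers were lower in Aspirin than in Control, as the first set was. The summed level of 11 adipocyte genes (Adipoq, Plin1 and others) was 3272 to 5902 CPM in Control, 998 to 2814 CPM in Aspirin and 1272 to 4226 CPM in Hydrogel, and 6 of the 11 were lower in Aspirin than in Control at an unadjusted p under 0.05. The 10 endothelial genes (Pecam1, Cdh5 and others) summed to 426 to 729 CPM in Control, 239 to 333 CPM in Aspirin and 357 to 518 CPM in Hydrogel, and 9 of the 10 were lower in Aspirin than in Control at that level. The 8 smooth muscle and pericyte genes summed to 516 to 639 CPM in Control, 335 to 439 CPM in Aspirin and 431 to 510 CPM in Hydrogel, and 2 of the 8 were lower in Aspirin than in Control at that level. The 9 macrophage genes summed to 645 to 1649, 1309 to 2863 and 588 to 1290 CPM, and the 12 stromal genes to 7104 to 10908, 5671 to 11612 and 5762 to 7848 CPM, in the same order of groups. All 9 macrophage genes and 7 of the 12 stromal genes had a positive log2 difference in Aspirin against Control. Over all genes, 619 of 18259 were lower in Aspirin than in Control at an unadjusted p under 0.05 in edgeR. Among these lists edgeR called 0 genes after adjustment, and no list had a gene at 0 in every library. The adipocyte, endothelial and smooth muscle sums thus separated Aspirin from Control as Irx5, Irx3, Tbx1 and Dach1 did, and their part in these differences was not tested. Between Hydrogel and Aspirin the adipocyte and smooth muscle sums overlapped, whereas the endothelial sum was higher in every Hydrogel library. In CPM, Irx5, Irx3, Tbx1 and Dach1 did not overlap between these groups either.

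Fast-fibre genes moved with the second set. Their sum was 115228, 194864 and 254837 CPM in Control, 27921, 166934 and 289705 CPM in Aspirin and 197830, 214606 and 366756 CPM in Hydrogel. In CPM it was lowest and highest in the same libraries as Tbx15, Six4, Eya1 and Lbx1. The TMM factor was 1.63 in Aspirin replicate 1 and 0.688 in Hydrogel replicate 3. In FPKM, Six4 was highest in Hydrogel replicate 1 and Lbx1 in Aspirin replicate 3. The part of fibre content in the values of these genes was not tested. The 8 satellite cell genes, by contrast, summed to 208 CPM in Aspirin replicate 1, the highest of the 9 libraries, and to 87.7 CPM in Hydrogel replicate 3, the lowest.

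The genes whose profile over the 9 libraries was most like that of each member were found among 13127 genes by Pearson's r of log2 CPM, given as a description with no p. For Irx5 these were Phlpp1 (0.952), Fmo1 (0.933) and Esam (0.931), and for Tbx1 Apol6 (0.971), Esam (0.957) and Fmo1 (0.955). Esam encodes an adhesion molecule of endothelial cells and belongs to the endothelial list. It read 34.3, 46.0 and 33.0 CPM in Control, 18.2, 21.6 and 21.3 CPM in Aspirin and 32.1, 25.8 and 21.6 CPM in Hydrogel. For Dach1 they were Nrep (0.961) and Adk (0.960), and for Irx3 Adk (0.968), mt-Te (0.967) and mt-Tr (0.947), the last pair being mitochondrial tRNAs.

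For the second set the most alike genes included genes of muscle fibres. Lbx1 was followed by Gbf1 (0.998), Sgcb (0.996), a sarcoglycan of the muscle membrane, and Klhl40 (0.995), a Kelch protein of skeletal muscle. For Eya1 they were Zfp93 (0.991), Tpm1 (0.988), a tropomyosin of the thin filament, and Mapre3 (0.988). For Tbx15 they were Bckdk (0.997), Nap1l4 (0.994) and Polr1a (0.992), and for Six4 Wars (0.989), Supv3l1 (0.980) and Ecd (0.977). All 9 libraries and their scaling factors enter each of these values. Without Aspirin replicate 1, r of the 12 genes named for the second set lay between 0.915 and 0.991.

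Relatives in the same gene families were described from a list of 29, of which 19 passed the filter. In Aspirin against Control 5 of the 19 had a positive and 14 a negative log2 difference, with a median of -0.29, and edgeR called 0 of them. Among the most abundant were Eya4 (4.42 FPKM) and Eya3 (3.90 FPKM), relatives of Eya1. Eya4 read 26.1, 46.4 and 48.9 CPM in Control, 11.1, 39.6 and 56.0 CPM in Aspirin and 54.9, 49.1 and 120.7 CPM in Hydrogel. Like Eya1, it was lowest in Aspirin replicate 1 and highest in Hydrogel replicate 3, with a log2 difference of -0.19 ± 0.57 in Aspirin against Control. Eya3 stayed between 21.3 and 26.9 CPM in all 9 libraries. At an unadjusted p under 0.05 the T-box gene Tbx6 had a higher level in Aspirin than in Control, at 1.81 ± 0.70, and Mga, a T-box partner of Max, a higher one in Hydrogel than in Control, at 0.55 ± 0.22. Tbx6 and Tbx18 were lower in Hydrogel than in Aspirin at that level, by log2 differences of -1.79 ± 0.70 and -0.97 ± 0.34. Six5 had a log2 difference of -0.42 ± 0.27 in Hydrogel against Control and did not reach that level. Irx2 and Irx1, also Iroquois genes, averaged 0.118 and 0.067 FPKM, far below Irx3.

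Of 33 factors of the limb field and of muscle precursors, 31 passed the filter and edgeR called 0. Cxcr4 (15.2 FPKM), Meox2 (5.65 FPKM) and Osr1 (3.84 FPKM), the first a chemokine receptor of migrating muscle precursors, were the most abundant. In Aspirin against Control 4 of the 31 were lower at an unadjusted p under 0.05 and 0 higher, among them Pax3, Gli3 and Gli1, Pax3 from 1.09, 1.27 and 1.54 CPM in Control to 0.29, 0.19 and 0.14 CPM in Aspirin. At that level in Hydrogel against Control, Meis1 was higher at 0.88 ± 0.37 and Twist1 and Pax3 lower at -1.13 ± 0.37 and -2.30 ± 0.93. In Hydrogel against Aspirin 1 of the 31 was higher and 2 lower, the latter being Shox2 and Cxcr4, at -0.82 ± 0.28 and -2.26 ± 0.96. The medians of the 31 were -0.16, -0.22 and -0.14 in the 3 comparisons, against 0.05, -0.03 and -0.05 over all genes.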

How the data were processed

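Total RNA of leg muscle (1 µg) went into SMARTER mRNA libraries, per the labels' protocols. As deposited by the authors, the files hold whole-number counts per Ensembl gene, not normalised, and FPKM values for the same genes and libraries. Per the submitters' processing notes the genome build was mm10. Which aligner, counter, gene models and strand setting were used is not given in the sources used here. Scaled counts and FPKM described the same reads: over 10432 genes that reached 100 counts in all libraries, 99.2% of ratios lay within 1% of 1 constant per gene. The table names no symbol for 3225 genes, and 55154 of 55335 IDs matched a mouse gene name table. Coordinates are 1-based, from GENCODE vM21.

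Groups follow the treatment labels, 3 mice each. A code of unknown meaning carries the number 9 in Control, 8 in Hydrogel, 7 in Aspirin replicates 1 and 2 and 10 in Aspirin replicate 3, so a batch marked by it cannot be told apart from treatment. Within each group, every pair of libraries differed by more than sampling noise (smallest chi-square per degree of freedom 77.8). The 8 members and the gene lists were chosen with earlier results of these data known.

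Counts of all 9 libraries entered 1 fit with edgeR 4.0.16 (quasi-likelihood, robust, TMM scaling, filterByExpr with minimum count 10 and total 15) in R 4.3.3, with Benjamini-Hochberg adjustment over 18259 genes and a threshold of 0.05. The common biological coefficient of variation was 0.503. CPM are counts over TMM-scaled library size, log2 CPM used a prior count of 1, and log2 FPKM a pseudocount of 0.1. A gene with 0 counts lies below 0.0554 to 0.100 CPM in a library (3 counts, counting error only). Pairwise correlations were tested by exact permutation (scipy 1.17.1). The fit was tested on simulated counts. Replicate numbers were not used as pairs.

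Genes eligible to be named were the 8 members, their nearest annotated genes, the 3 genes most alike each member (mean of at least 1 CPM, predicted names left out), and, per list, the 3 of highest mean FPKM and the 3 of smallest p in each comparison. Gli1, Tbx4, Tbx5 and Pitx1 were added after values were seen. Some genes the rule names are not reported here. Alternatives were RLE or library size scaling, no filter, DESeq2 1.42.0, limma 3.58.1 (voom, and trend on the deposited FPKM), a replicate block, the 2 compared groups alone and leaving out each library. Leaving out Aspirin replicate 1, Hydrogel replicate 3 or both when counting separated groups, and the former when listing most alike genes, was added after seeing the data.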

Additional observations from a re-analysis of the deposited data

How the results depend on the processing

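edgeR called 0 genes in each comparison and 0 for any difference among the groups (1272 genes at an unadjusted p under 0.05), also with RLE or library size scaling, without the filter and with limma-voom or the deposited FPKM. DESeq2 called 101 genes in Aspirin against Control, 18 in Hydrogel against Control, 157 in Hydrogel against Aspirin and 153 for any difference, and the cause was not tested. With the replicate block edgeR called 1 gene in Hydrogel against Aspirin and 0 in the other tests. Same-number correlations of deviations from the group means ran from -0.335 to 0.540, and different-number ones from -0.527 to 0.484. Most same-number values were positive and most different-number values negative. As the ranges overlap, they do not settle whether the replicate numbers pair the libraries. Leaving out 1 library gave 0 to 2 calls in Hydrogel against Aspirin (2 without Aspirin replicate 3), 0 to 1 for any difference (1 without Aspirin replicate 2) and 0 elsewhere.

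The 11 correlated pairs became 6 with Spearman's rho, 6 with library size alone and 6 with the deposited FPKM, and 5 to 13 when 1 library was left out (5 without Aspirin replicate 1, 13 without Aspirin replicate 3). With groups centred 0 passed. A single pair could not pass there, since the smallest p over 216 orders is 0.00463, or 0.130 over 28 pairs, and 4 pairs had an unadjusted p under 0.05. Of 24 log2 differences, 4 changed sign in 11 of 408 recomputed values: Irx3 in Hydrogel against Control, and Six4, Eya1 and Lbx1 in Aspirin against Control. In the last of these comparisons the differences of Six4, Eya1 and Lbx1 were smaller than their SE.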

Other observations

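Hox genes of limb position were the third list, with 13 of 19 genes past the filter and 0 called by edgeR. Hoxc10 (29.0 FPKM), Hoxd8 (4.50 FPKM) and Hoxd9 (4.39 FPKM) were the most abundant. In Hydrogel against Control 2 of the 13, Hoxd8 and Hoxd10, had an unadjusted p under 0.05, both higher, at log2 differences of 1.59 ± 0.55 and 1.83 ± 0.76 (SE, n = 3 per group; edgeR, adjusted p = 0.987). Hoxd8, a gene of the early limb Hox clusters, read 5.21, 7.06 and 10.7 CPM in Control, 4.16, 18.1 and 18.5 CPM in Aspirin and 18.0, 18.2 and 32.9 CPM in Hydrogel. Each Hydrogel library was above each Control library, a pattern that 6.85% of all genes tested showed. Aspirin overlapped with both groups, with its replicate 1 lowest of all.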
